A study of Mus musculus with 14 samples.

Results

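The genes described here are 10 costimulatory and checkpoint genes of the macrophage surface, chosen by symbol out of the 55414 genes of the count table: Cd274 (PD-L1), Pdcd1lg2 (PD-L2), Cd80, Cd86, Cd40, Icosl, Vsir (VISTA), Lgals9 (galectin-9), Havcr2 (TIM-3) and Sirpa. Their RNA was measured in wildtype mouse primary bone marrow-derived macrophages (pBMDMs) given 24 h of conditioned or fresh medium. The conditioned media came from Pfa1 mouse embryonic fibroblasts (MEFs), a single line in which 4-hydroxytamoxifen (4OHT) removes the ferroptosis-suppressing enzyme GPX4. The 4 supernatants were those of untreated MEFs (ctrl), of MEFs given the ferroptosis inhibitor Ferrostatin-1 (Fer1), of MEFs given both agents (4OHT+Fer1) and of MEFs given 4OHT alone, which die by ferroptosis (4OHT). The fifth stimulus was fresh medium without contact with MEFs (medium). All groups had 3 replicates except medium with 2, 14 samples in all. The first 3 supernatants, which the labels call non-ferroptotic, are called the 3 live supernatants below. The added agents can be carried over with the supernatant, and the 4OHT and ctrl groups differ in the agent as well as in the death of the MEFs.

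T cells need a second signal beside antigen, and macrophages can give it through CD80 and CD86, which bind CD28, and through ICOS ligand. CD40 on the macrophage receives the CD40 ligand of T cells and raises the antigen-presenting functions of the cell. PD-L1 and PD-L2 bind PD-1 and restrain T cells, VISTA and galectin-9 are further inhibitory ligands, TIM-3 is an inhibitory receptor, and SIRPα receives the CD47 signal that restrains phagocytosis.

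Levels are counts scaled to the library size as CPM, with edgeR's TMM factors. QuantSeq reads start near the 3′ end of a transcript, so that a gene yields a count that does not grow with its length. Differences are log2 fold changes with a standard error (SE), and adjusted p-values are those of the quasi-likelihood test of edgeR, adjusted after Benjamini and Hochberg over the 12851 genes that had enough counts to be tested. A gene was said to have risen or fallen where its adjusted p was under 0.05. Total counts lay between 7823051 and 11052352 per sample, where 3 counts were worth 0.272 to 0.381 CPM, a limit that covers counting error only. For 13 pairs of replicates the chi-square of their counts, divided by its degrees of freedom, lay between 10.8 and 80.4, so that none of them agreed within sampling noise. All 10 macrophage markers, among them Adgre1, Csf1r and Lyz2, were measured in every sample and summed to 19589 to 44710.5 CPM. T cell markers were nearly absent, with Cd3e, Cd3g and Cd8a at 0 in every sample, and the 5 B cell markers summed to 0.552 to 3.50 CPM. In bulk RNA, fewer cells of a type and less RNA per cell cannot be told apart.

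The genes stood at very different levels. Sirpa was the most abundant, with a median of 1094 CPM over the 14 samples, above 99.4% of the genes tested by its mean. Vsir had a median of 462 CPM and Lgals9 of 276 CPM. The checkpoint ligand Cd274 had a median of 21.6 CPM. The ligands of T cell costimulation had medians of 15.6 CPM for Icosl, 9.03 CPM for Cd86 and 1.07 CPM for Cd80, and the receptors Havcr2 and Cd40 had medians of 11.7 and 8.15 CPM. Pdcd1lg2 had 35 counts in the 14 samples together, between 0 and 8 per sample, and was not tested. At this depth Pdcd1lg2 did not pass the filter on low counts, so a difference in it was not looked for in the reported fit. The comparisons hold 9 of the 10 genes.

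**Figure D1:**
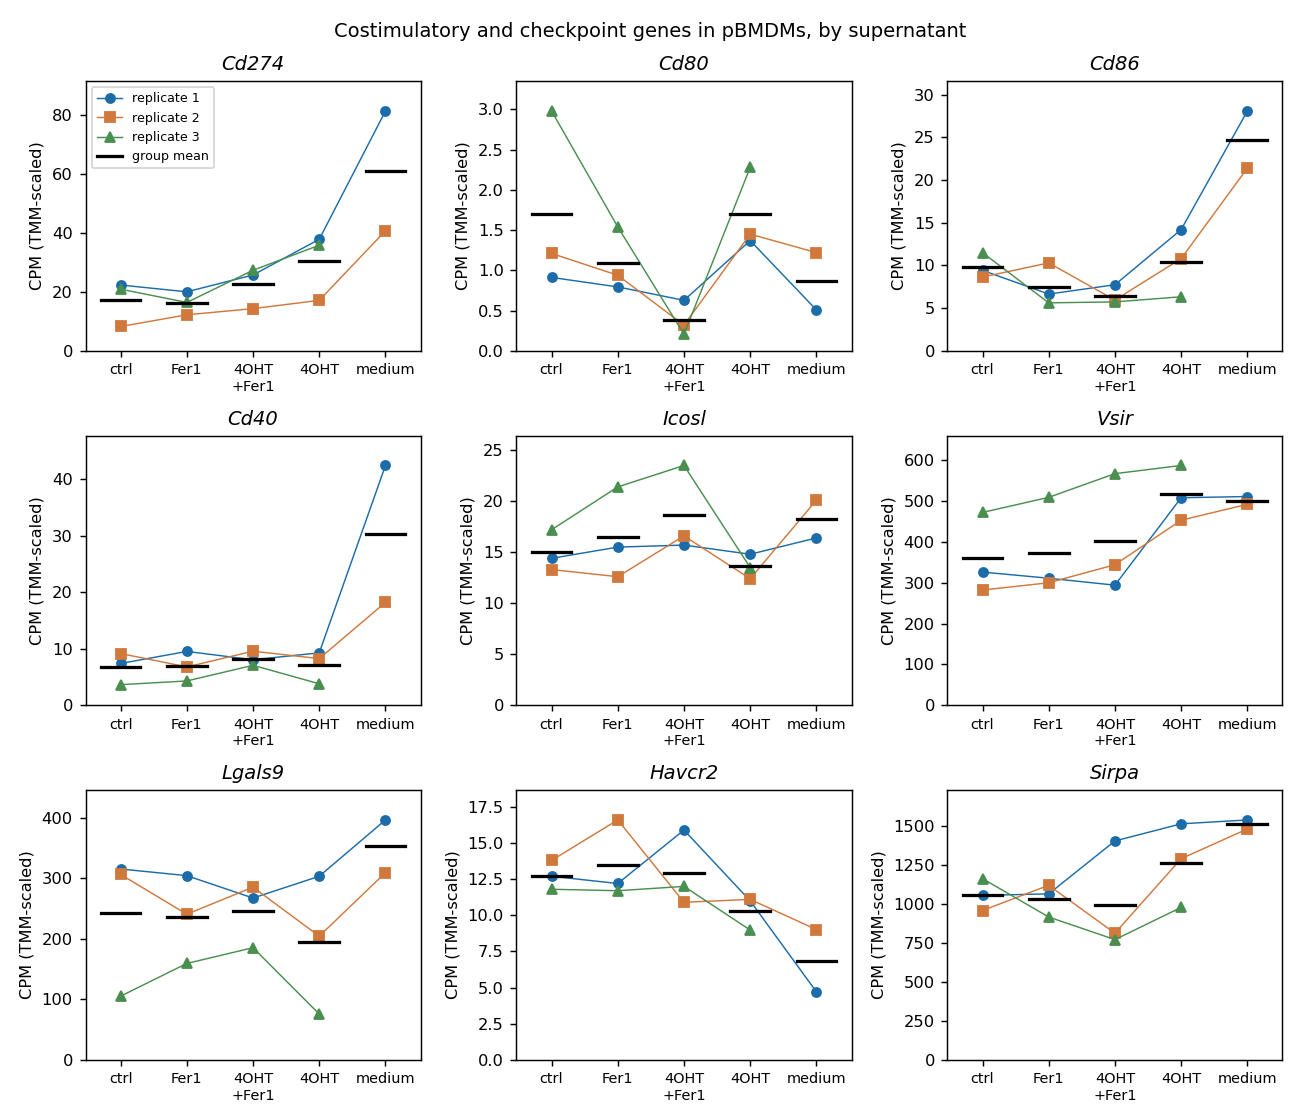
Levels of the 9 tested genes, 1 gene per panel, in CPM (vertical axis, from 0) for each of the 5 groups (horizontal axis). Points are samples, coloured and joined by replicate number, and black bars are group means. Cd274, Cd86 and Cd40 were highest in medium, Havcr2 lowest in medium, and the replicate 3 samples (green) lay lowest in every supernatant for Lgals9 and highest for Vsir.

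The positions of the genes were taken from the GENCODE M21 annotation of GRCm38 by their identifiers, and all 10 are protein-coding. Cd274 (ENSMUSG00000016496, chr19:29367455-29388095, plus strand) and Pdcd1lg2 (ENSMUSG00000016498, chr19:29410919-29471161, plus strand) are neighbours, separated by 22823 bp. Cd86 (chr16:36603869-36666081, minus strand) and Cd80 (chr16:38455561-38496335, plus strand) share chromosome 16. Cd40 (chr2:165055627-165072948) and Sirpa (chr2:129592835-129632228) lie on the plus strand of chromosome 2. Icosl (chr10:78069302-78083913) and Vsir (chr10:60346851-60372684) lie on the plus strand of chromosome 10, and chromosome 11 holds Havcr2 (chr11:46454935-46481255, plus strand) and Lgals9 (chr11:78962974-78984946, minus strand). Vsir overlaps Cdh23 on the opposite strand, a gene with 7 counts in all samples together against 55423 for Vsir. Pdcd1lg2 overlaps A930007I19Rik on the opposite strand, which had 415 counts, and whether counting used the strand is not given in the sources used here.

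Promoter sequences of 7 of the 10 genes were found in the RefSeq table (GRCm38.p6), each from 250 bases before to 50 bases after the start of the gene. Printed 5′ to 3′ on the gene's own strand are those of Cd274 and Vsir, which rose in 4OHT, of Havcr2, the gene that fell in medium, and of Lgals9, which followed the replicate number. Capitals mark matches, on either strand and without overlap between motifs, to the STAT motif TTCNNNGAA, the interferon-response motif GAAANNGAA, the AP-1 motif TGANTCA or the NF-κB consensus.
Cd274 promoter, chr19:29367188-29367487, plus strand: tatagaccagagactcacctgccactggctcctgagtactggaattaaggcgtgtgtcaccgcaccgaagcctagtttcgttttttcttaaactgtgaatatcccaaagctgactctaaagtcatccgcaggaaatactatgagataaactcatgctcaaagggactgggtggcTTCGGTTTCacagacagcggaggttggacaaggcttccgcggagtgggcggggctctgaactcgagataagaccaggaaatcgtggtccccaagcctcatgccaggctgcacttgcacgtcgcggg
Vsir promoter, chr10:60346601-60346900, plus strand: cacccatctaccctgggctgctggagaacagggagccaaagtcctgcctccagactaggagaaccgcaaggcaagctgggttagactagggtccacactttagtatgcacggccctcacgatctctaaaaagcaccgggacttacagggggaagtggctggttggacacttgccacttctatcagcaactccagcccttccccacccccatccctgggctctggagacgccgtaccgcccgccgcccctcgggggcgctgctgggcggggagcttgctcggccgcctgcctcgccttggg
Havcr2 promoter, chr11:46454681-46454980, plus strand: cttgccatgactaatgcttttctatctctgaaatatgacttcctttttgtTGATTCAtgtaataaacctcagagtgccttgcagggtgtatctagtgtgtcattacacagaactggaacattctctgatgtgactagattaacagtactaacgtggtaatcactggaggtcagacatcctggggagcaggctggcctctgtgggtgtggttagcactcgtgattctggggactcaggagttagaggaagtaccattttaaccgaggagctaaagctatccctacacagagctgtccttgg
Lgals9 promoter, chr11:78984875-78985174, minus strand: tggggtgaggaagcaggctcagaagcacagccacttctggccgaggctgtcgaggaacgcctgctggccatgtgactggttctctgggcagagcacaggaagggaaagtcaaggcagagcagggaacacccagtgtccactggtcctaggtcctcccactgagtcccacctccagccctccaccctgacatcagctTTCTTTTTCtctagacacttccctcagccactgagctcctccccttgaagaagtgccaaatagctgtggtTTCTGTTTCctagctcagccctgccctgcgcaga
The Cd274 window held 1 match to the interferon-response motif on its reverse strand, TTCGGTTTC, and the Lgals9 window held 2, TTCTTTTTC and TTCTGTTTC. The Havcr2 window held 1 AP-1 match, TGATTCA, and the Vsir window held none of the 4 motifs. Among 32851 promoters of the table, 8.3% held the STAT motif, 8.56% the interferon-response motif, 7.81% the AP-1 motif and 4.51% the NF-κB consensus. A match is a description of these letters, and a window without one says only that the letters are not in it.

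Whether ferroptotic supernatant changed these genes was asked first against ctrl. Cd274, the ligand of PD-1, rose, and it was the 1 gene of the 9 to do so, where 1.49% of all genes tested passed in either direction. Cd274 stood at 37.8, 17.1 and 35.8 CPM in the 4OHT samples of replicates 1, 2 and 3, and at 22.3, 8.24 and 20.9 CPM in ctrl. In each replicate number the 4OHT sample was the higher, while the 4OHT sample of replicate 2 lay below the ctrl samples of replicates 1 and 3, so that the groups overlapped. The log2 fold change was 0.85 (SE 0.18, 95% interval 0.46 to 1.23, adjusted p = 0.0375, higher in 3 of 3 replicate numbers), which is 1.8-fold, and the difference in log2 CPM within replicates was 0.76, 1.04 and 0.77. This call rested on the replicate block: without it the adjusted p was 0.801 at a log2 fold change of 0.82, and 7 of all 12851 genes passed. In the fit of ctrl and 4OHT alone the adjusted p was 0.333, and 0 of 11857 genes passed. The call was also lost without replicate 1, 2 or 3, with log2 fold changes between 0.78 and 0.90. Hardly any of all genes passed without replicate 1 or 2, in fits with a lone medium sample. Without replicate 3 the adjusted p was 0.064, and 249 of 12516 genes passed.

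The other 8 genes did not pass against ctrl. Vsir came nearest, with 508, 453 and 587 CPM in 4OHT and 326, 282 and 472 CPM in ctrl. The 4OHT sample was again the higher in every replicate number, and only the ctrl sample of replicate 3 reached the range of 4OHT. Its log2 fold change was 0.55 (SE 0.15, adjusted p = 0.107), and DESeq2 in place of edgeR passed it, so that 2 of the 9 genes were called. Havcr2 was the single gene whose 4OHT samples, at 11.0, 11.1 and 8.98 CPM, did not overlap those of ctrl, at 12.7, 13.8 and 11.8 CPM. Its log2 fold change of -0.30 (95% interval -0.82 to 0.21) did not pass (adjusted p = 0.746), and 11% of all genes tested had 4OHT and ctrl samples that did not overlap. For Cd80, Cd86, Cd40, Icosl and Sirpa the log2 fold changes lay between -0.12 and 0.22, and that of Lgals9 was -0.35. The median over the 9 genes was 0.07, beside 0.01 over all genes tested.

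Setting 4OHT against the mean of the 3 live supernatants brought in 9 control samples. Cd274 and Vsir rose, 2 of the 9 genes, where 2.95% of all genes passed. The log2 fold change of Cd274 was 0.70 (SE 0.14, adjusted p = 0.016) and that of Vsir 0.49 (SE 0.12, adjusted p = 0.0432). Cd80, Cd86, Cd40, Icosl, Havcr2, Lgals9 and Sirpa did not pass, with log2 fold changes from -0.43 for Lgals9 to 0.92 for Cd80. No gene of the 9 had 4OHT samples apart from all 9 live supernatant samples, which 3.35% of all genes had. Without the replicate block neither gene passed (adjusted p = 0.537 for Cd274 and 0.596 for Vsir), where 109 of the 12851 genes did. Neither passed without replicate 1 or without replicate 2, where far fewer of all genes passed than with all samples. Vsir also missed the threshold without a filter on low counts (adjusted p = 0.0509) and with 4OHT and the live supernatants fitted alone (0.0697). The summed macrophage markers ran from 28847 to 44710.5 CPM in 4OHT and from 19589 to 30161 CPM in the live supernatants, of which Lyz2 alone made up 13967 to 36193 CPM over all samples (log2 fold change 0.44, adjusted p = 0.107). Of the 10 markers 1 passed, Adgre1 (0.49, adjusted p = 0.0424), and the others lay between -0.43 for Fcgr1 and 0.65 for Csf1r. The part of these levels in the results for Cd274 and Vsir was not tested.

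**Figure D2:**
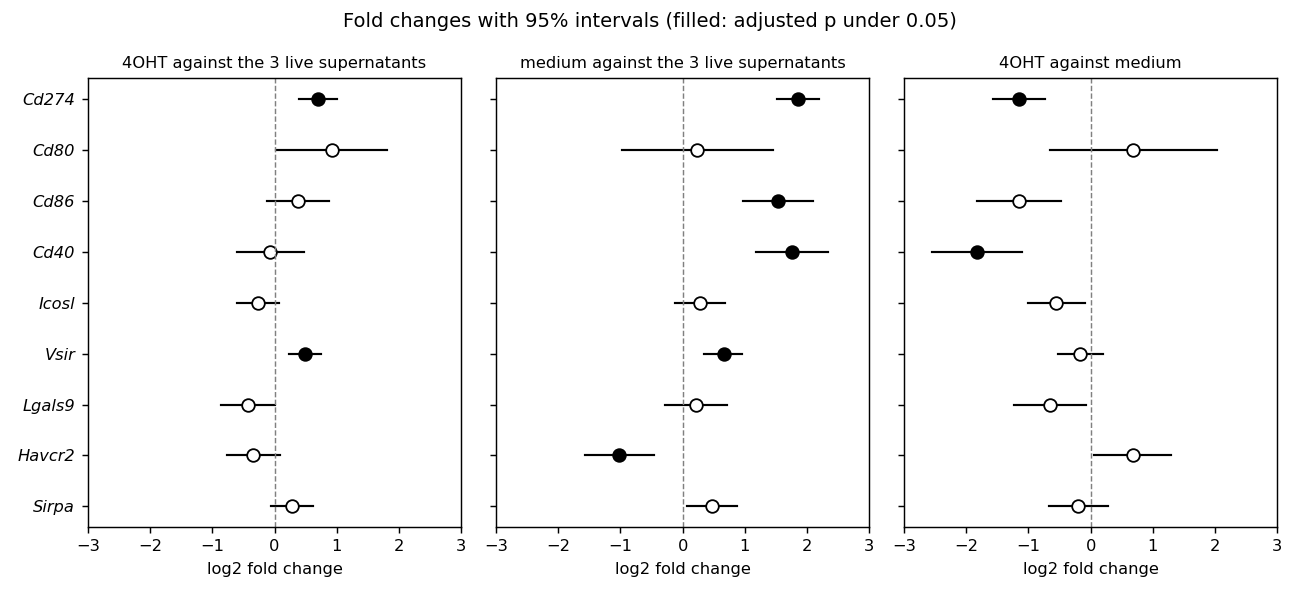
Log2 fold changes (horizontal axis) of the 9 tested genes (vertical axis) in 3 comparisons, with 95% intervals as lines and filled points for an adjusted p under 0.05. Cd274 and Vsir are filled to the right in the first panel, Cd274, Cd86, Cd40 and Vsir to the right and Havcr2 to the left in the second, and Cd274 and Cd40 to the left in the third.

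Ferrostatin-1 keeps MEFs given 4OHT alive, and the comparison of 4OHT with 4OHT+Fer1 sets dying against living MEFs that both received 4OHT. These supernatants also differ in Ferrostatin-1 itself, which can be carried over to the macrophages. None of the 9 genes passed in edgeR's quasi-likelihood test, although 6 had an unadjusted p under 0.05, as did 1516 of the 12851 genes, and DESeq2 called 0 of them too. Over all genes 1.35% passed the adjusted threshold. Cd274 stood at 25.7, 14.3 and 27.3 CPM in 4OHT+Fer1, above ctrl and below 4OHT in each replicate number, with a log2 fold change of 0.40 in 4OHT against it (95% interval 0.02 to 0.78, adjusted p = 0.382). Vsir, at 294, 344 and 567 CPM in 4OHT+Fer1, was lower there than in 4OHT by 0.79, 0.39 and 0.05 on the log2 CPM scale in replicates 1, 2 and 3.
The largest difference was that of Cd80, the scarcest gene tested. Its samples held 6, 3 and 2 counts in 4OHT+Fer1, against 13, 16 and 18 in 4OHT, 9, 12 and 27 in ctrl and 8, 9 and 14 in Fer1. Every 4OHT+Fer1 sample had fewer Cd80 counts than every sample of the other 3 supernatants. The share of all genes with 4OHT+Fer1 apart in this way was not counted, so this separation describes the samples only. The log2 fold change was 2.04 for 4OHT against 4OHT+Fer1 (SE 0.58, adjusted p = 0.145), and in 4OHT+Fer1 against ctrl it was -1.96 (SE 0.59, adjusted p = 0.948). Neither passed over all genes, and 2 to 27 counts per sample set wide limits on both.

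Ferrostatin-1 alone left no gene past the threshold. In Fer1 against ctrl 0 of 12851 genes passed in edgeR's quasi-likelihood test, which is 0%, 146 had an unadjusted p under 0.05, and DESeq2 called 3. None of the 9 genes was among the 146, and the log2 fold change of Cd274 was 0.01 (95% interval -0.38 to 0.39). In 4OHT+Fer1 against ctrl 0.0311% of all genes passed and none of the 9, of which Cd274 (log2 fold change 0.44), Cd80 and Cd86 (-0.63) had an unadjusted p under 0.05, and DESeq2 gave 0 of the 9. Whether the effect of 4OHT differed between MEFs with and without Ferrostatin-1 was tested as an interaction, in which 0.0311% of all genes passed and 0 of the 9 by edgeR's quasi-likelihood test, with 0 by DESeq2. Vsir alone had an unadjusted p under 0.05 there, with a difference of 0.45 between the log2 fold changes (95% interval 0.00 to 0.91, adjusted p = 0.805). For Cd274 that difference was 0.41 (95% interval -0.13 to 0.95).

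Fresh medium was set against the supernatants next. Against ctrl, 5 of the 9 genes differed in medium, 4 higher and 1 lower, where 10.9% of all genes passed. Against the mean of the 3 live supernatants the same 5 genes passed, where 14.7% of all genes did. Cd274, Cd40, Cd86 and Vsir were higher in medium, and Havcr2 was lower. The median log2 fold change of the 9 genes against the live supernatants was 0.48, beside 0.02 over all genes tested. Against the live supernatants, with medium replicate 1 left out, Cd274 was the 1 gene that passed, and with medium replicate 2 left out Cd274, Cd40, Cd86 and Havcr2 passed, 4 genes. Without replicate 1 in all groups Cd274 passed, and without replicate 2 Cd274 and Cd40 did. Fewer of all genes passed in each of these fits than with all samples.
Cd274 reached 81.3 and 40.7 CPM in the medium samples of replicates 1 and 2, and at most 27.3 CPM in the 9 live supernatant samples. Both medium samples lay above all 9. The log2 fold change was 2.00 against ctrl (SE 0.20, adjusted p = 8.57e-05) and 1.85 against the live supernatants (SE 0.16, adjusted p = 1.91e-05). This call held under all 11 alternatives, with log2 fold changes from 1.73 to 1.86 against the live supernatants.
Cd40, the receptor for CD40 ligand, stood at 42.4 and 18.2 CPM in medium and between 3.64 and 9.56 CPM in the live supernatants. The medium samples were apart from all others, and that of replicate 1 was the higher by far. The log2 fold change was 1.89 against ctrl (SE 0.33, adjusted p = 0.00293) and 1.76 against the live supernatants (SE 0.27, adjusted p = 0.000785). Without medium replicate 1 it was 1.10 against the live supernatants, 1.76 with it, and no longer passed (adjusted p = 0.0913).

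Cd86, a ligand of CD28, had 28.1 and 21.4 CPM in medium, while ctrl had 9.42, 8.64 and 11.5 CPM, Fer1 6.65, 10.3 and 5.62 CPM and 4OHT+Fer1 7.74, 5.95 and 5.73 CPM. The medium samples were above every supernatant sample, 4OHT included, at 14.2, 10.8 and 6.33 CPM. Its log2 fold change was 1.19 against ctrl (SE 0.32, adjusted p = 0.0337) and 1.54 against the live supernatants (SE 0.26, adjusted p = 0.00161). Against ctrl it missed the threshold under 5 of 11 alternatives, which were library sizes alone (1.06, adjusted p = 0.058), replicate 1 or replicate 2 left out in all groups, and medium replicate 1 (1.02, adjusted p = 0.268) or 2 (1.32, adjusted p = 0.112) left out. Against the live supernatants it missed it without medium replicate 1, replicate 1 or replicate 2. Cd80, which binds the same receptor, had 4 and 11 counts in medium, and its log2 fold change of 0.24 against the live supernatants has a 95% interval from -0.98 to 1.45.
Vsir had 511 and 492 CPM in medium. The replicate 3 samples of Fer1, at 509 CPM, and 4OHT+Fer1, at 567 CPM, reached or passed this range, so that the groups overlapped. With the replicate number in the model the log2 fold change was 0.66 against the live supernatants (SE 0.14, adjusted p = 0.00741), and without it 0.41 (adjusted p = 0.438). Havcr2, the TIM-3 gene, stood at 4.70 and 9.01 CPM in medium and between 10.9 and 16.6 CPM in the live supernatants. Both medium samples lay below all 9, and the log2 fold change was -1.02 (SE 0.25, adjusted p = 0.0178). Without medium replicate 1, the lowest sample, it was -0.61 (adjusted p = 0.337).
Sirpa, at 1541 and 1483 CPM in medium and 772 to 1406 CPM in the live supernatants, did not overlap either but did not pass (log2 fold change 0.48, adjusted p = 0.116). In all, 5 of the 9 genes had medium samples apart from the 9 live supernatant samples (Cd274, Cd86, Cd40, Havcr2 and Sirpa), where 18.4% of all genes tested did. Icosl and Lgals9 overlapped and did not pass, with log2 fold changes of 0.28 and 0.22.

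Markers of other cells were set beside the medium results. The 7 neutrophil markers summed to 38.2 and 55.1 CPM in the medium samples, to between 2.87 and 17.5 CPM in the live supernatants and to between 4.05 and 28.0 CPM in 4OHT, and S100a8, S100a9, Camp and Ngp, the 4 that could be tested, were all higher in medium than in the live supernatants. Ly6g, a surface marker of mature neutrophils, and Elane, a gene of their precursors, were at 0 in every sample. Of the 10 dendritic cell markers only Itgax could be tested, the others reaching at most 2.29 CPM, and the summed level in medium, 10.5 and 11.0 CPM, lay within that of the live supernatants, 2.82 to 20.0 CPM. The 8 fibroblast markers summed to 33.5 and 103 CPM in medium and to 15.5 to 121 CPM in the live supernatants. Of the 4 that could be tested, Col1a2 was higher in medium (log2 fold change 0.96, adjusted p = 0.0157), and Col1a1 (0.70), Postn (1.01) and Col3a1 (-0.50) did not pass. The macrophage markers Aif1 (log2 fold change 1.28), Adgre1 (0.77), Mertk (0.71) and Fcgr1 (0.69) were higher in medium than in the live supernatants. The other macrophage markers did not pass, with log2 fold changes from -0.18 for Itgam and -0.13 for C1qa to 0.75 for Csf1r. The part of these marker levels in the results for Cd274, Cd40, Cd86, Vsir and Havcr2 was not tested.

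Ferroptotic supernatant was set against fresh medium as well. Cd274 and Cd40 were lower in 4OHT, 2 of the 9 genes, where 4.26% of all genes passed. Cd274 fell by 1.15 on the log2 scale (SE 0.19, adjusted p = 0.00671), and Cd40, at 9.27, 8.25 and 3.80 CPM in 4OHT, fell by 1.83 (SE 0.33, adjusted p = 0.00884). The samples of the groups did not overlap for either gene, nor for Cd80, Cd86, Icosl and Lgals9, which did not pass. The share of all genes without overlap was not counted for these groups. The lack of overlap therefore describes these samples only and is no result about these genes. Cd86 was lower by a like size without passing (log2 fold change -1.15, SE 0.31, adjusted p = 0.0603), and passed by DESeq2, without a filter on low counts and with only the groups compared in the fit. The 4OHT and medium levels of Vsir could not be told apart, with a log2 fold change of -0.17 (95% interval -0.53 to 0.20). Without medium replicate 1 none of the genes passed, the Cd40 value then being -1.16, and without medium replicate 2 Cd40 alone did. With replicate 1 or replicate 2 left out in all groups, none of the 9 genes passed, and far fewer of all genes did than with all samples. Without the replicate block the adjusted p was 0.414 for Cd274 and 0.0553 for Cd40, and 104 of the 12851 genes passed. The 4OHT and live supernatant comparisons share samples with the medium comparisons, so their values stand side by side and not as independent results.

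The order of the group means of Cd274 was Fer1 (16.2 ± 3.92 CPM, SD, n = 3), ctrl (17.1 ± 7.73), 4OHT+Fer1 (22.5 ± 7.09), 4OHT (30.3 ± 11.4) and medium (61.0 ± 28.7, n = 2). Of the neighbours in this order, 4OHT and medium differed past the threshold, and the others did not. For Cd86 the order was 4OHT+Fer1 (6.47 ± 1.10 CPM), Fer1 (7.53 ± 2.48), ctrl (9.85 ± 1.47), 4OHT (10.4 ± 3.96) and medium (24.7 ± 4.74), and no pair of neighbours passed. For Cd40 it was ctrl (6.73 ± 2.81 CPM), Fer1 (6.87 ± 2.61), 4OHT (7.11 ± 2.91), 4OHT+Fer1 (8.22 ± 1.26) and medium (30.3 ± 17.1), where 4OHT+Fer1 and medium differed (adjusted p = 0.0124). Havcr2 ran from medium (6.85 ± 3.05 CPM) over 4OHT (10.3 ± 1.17), ctrl (12.7 ± 0.981) and 4OHT+Fer1 (12.9 ± 2.61) to Fer1 (13.5 ± 2.69), and no neighbours differed.
The inhibitory ligand genes Vsir and Lgals9 had other orders. Vsir ran from ctrl (360.2 ± 99.5 CPM), Fer1 (373 ± 118) and 4OHT+Fer1 (402 ± 145) to medium (501 ± 13.4) and 4OHT (516 ± 67.2), and of the neighbours 4OHT+Fer1 and medium differed (adjusted p = 0.0485). Unlike the tests, these group means are not adjusted for the replicate number, and medium has no replicate 3. In replicates 1 and 2 Vsir stood at 511 and 492 CPM in medium and at 508 and 453 CPM in 4OHT. With the replicate number in the model, 4OHT against medium was -0.17 on the log2 scale. Lgals9 was lowest in 4OHT (194 ± 114 CPM), between 235 and 246 CPM in the means of the live supernatants and highest in medium (353 ± 61.5), with no neighbours past the threshold. Icosl ran from 13.6 ± 1.17 CPM in 4OHT to 18.6 ± 4.31 CPM in 4OHT+Fer1 and differed in no comparison, its highest sample being 1.9 times its lowest. Cd80 ran from 4OHT+Fer1 (0.384 ± 0.219 CPM) over medium (0.866 ± 0.506), Fer1 (1.09 ± 0.397) and 4OHT (1.70 ± 0.503) to ctrl (1.70 ± 1.12), with no neighbours past the threshold. Sirpa ran from 997 ± 355 CPM in 4OHT+Fer1 to 1512 ± 41.0 CPM in medium and passed in no comparison as reported. With only the groups compared in the fit, Sirpa passed in medium against ctrl (log2 fold change 0.56, adjusted p = 0.0177), which made 6 of the 9 genes.

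Several of the genes moved with the replicate number. This contrast, replicate 3 against the mean of replicates 1 and 2 in the same model, was added after the data had been seen, and 14.1% of all genes passed it. Lgals9 had 105, 159, 185 and 75.4 CPM in the replicate 3 samples of ctrl, Fer1, 4OHT+Fer1 and 4OHT. All 10 samples of the other numbers lay between 204 and 396 CPM, so that the replicate 3 samples stood apart. The log2 fold change was -1.13 (SE 0.19, adjusted p = 0.00196), while between stimuli this gene passed in no comparison, except in 4OHT against medium with only those groups fitted (-0.51, adjusted p = 0.0371). Vsir was higher in replicate 3 (0.63, adjusted p = 0.00257), Cd40 lower (-0.88, adjusted p = 0.0302) and Cd274 higher (0.42, adjusted p = 0.0488). As medium had no replicate 3, its mean CPM is set against groups of which 1 sample in 3 is of that replicate. The fold changes and tests hold the replicate number in the model, except where the block is said to be left out.

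**Figure D3:**
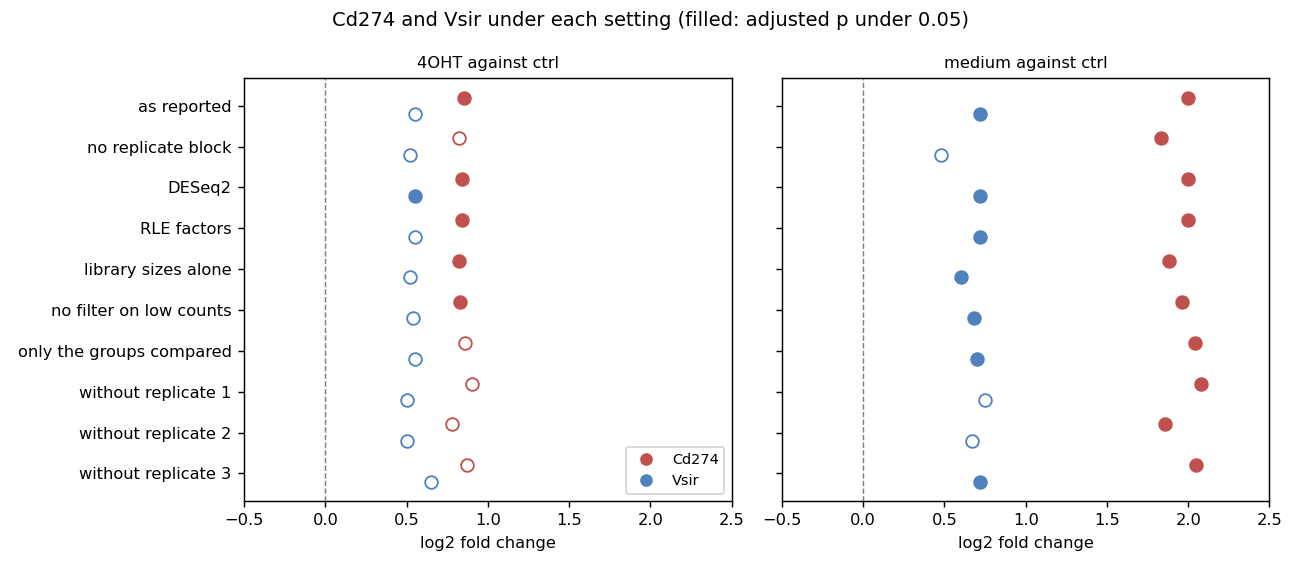
Log2 fold changes (horizontal axis) of Cd274 (red) and Vsir (blue) in 4OHT against ctrl and in medium against ctrl under each setting of the analysis (vertical axis), filled for an adjusted p under 0.05. Cd274 keeps to 0.78 to 0.90 in the first panel, where it passes under some settings only, and to 1.83 to 2.08 in the second, where all are filled.

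The genes whose log2 CPM followed that of Cd274 most closely over the 14 samples were Ptprc (r = 0.93), which encodes the leukocyte phosphatase CD45, Nfkbiz (0.93), which encodes an atypical IκB protein, Pirb (0.92), an inhibitory receptor for MHC class I whose reads can be shared with near-identical Pira genes, Itga4 (0.92), an integrin chain, and Ripk2 (0.91), a kinase in NOD signalling. The points share the libraries and the 2 medium samples lie at the upper end. These genes changed less than Cd274, with log2 fold changes from 0.21 for Pirb to 0.60 for Itga4 in 4OHT against ctrl and from 0.54 to 1.34 in medium against ctrl.

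Lists of related genes were described by their counts. Whether the calls of these genes hold without the replicate block is not given here. Of 17 genes of the interferon route and of PD-L1 stability, none differed between 4OHT and the live supernatants by edgeR's quasi-likelihood test (5 at an unadjusted p under 0.05, and 1 called by DESeq2), and 7 were higher in medium than in the live supernatants, where 14.7% of all genes passed. The median log2 fold change of the list was 0.52 there, beside 0.02 over all genes. Among these were Socs1, a feedback inhibitor of JAK kinases (1.95, adjusted p = 0.00345), and the transcription factor Irf7 (1.32, adjusted p = 0.00193). Against medium, 4 of the 17 fell in 4OHT, where 4.26% of all genes passed. Among them were Irf7 and Stat2, with log2 fold changes of -1.79 and -1.09. Irf7, like Lgals9, was lowest in the replicate 3 samples, at 39.1 to 107 CPM.
Of 16 genes of CD40 and TNF receptor signalling, Nfkb2 and Relb, the subunits of alternative NF-κB, rose in 4OHT against the live supernatants (log2 fold changes 0.67 and 0.71, adjusted p = 0.0082 and 0.0185). In this comparison 2.95% of all genes passed. Relb stood at 21.0, 25.6 and 24.9 CPM in 4OHT and at 10.6 to 21.9 CPM in the live supernatants, where the Fer1 sample of replicate 3 reached the 4OHT range. Nfkb2 also rose against ctrl (0.75, adjusted p = 0.031). Its 4OHT samples, at 45.7, 55.9 and 66.1 CPM, overlapped the live supernatants, at 27.3 to 54.1 CPM. In medium 6 of the 16 rose against the live supernatants (14.7% of all genes passed), among them Tnfrsf1b, a receptor for TNF (1.07), Relb (0.82) and Map3k14, the kinase upstream of Nfkb2 (0.74).

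Of 11 tested genes of the other B7, butyrophilin and nectin ligands, Cd276, the B7-H3 gene, fell in 4OHT against the live supernatants (log2 fold change -1.39, SE 0.27, adjusted p = 0.0154) and fell in medium too (-2.28, SE 0.36, adjusted p = 0.00104). Its levels were 3.16, 4.81 and 1.39 CPM in 4OHT, 1.65 and 2.22 CPM in medium and 4.64 to 12.9 CPM in the live supernatants. Fgl2, an inhibitory ligand, was higher in medium (2.26, adjusted p = 0.000263) at 376 and 174 CPM, against at most 80.9 CPM in the live supernatants. Cd47, the ligand of SIRPα, was higher in medium as well (0.63, adjusted p = 0.00392), and Hmgb1, which has close pseudogene copies that can share its reads, lower (-0.65, adjusted p = 0.0239).
Of 7 tested TNF superfamily ligands, Tnfsf10, the TRAIL gene (1.83, adjusted p = 0.000239), and Tnfsf15 (1.06, adjusted p = 0.00458) were higher in medium than in the live supernatants, where 14.7% of all genes passed. No ligand passed in 4OHT against the live supernatants by edgeR's quasi-likelihood test (2 at an unadjusted p under 0.05, and 1 called by DESeq2).

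Of 17 tested inhibitory receptors of myeloid cells and their phosphatases, 1 rose and 3 fell in 4OHT against the live supernatants, where 2.95% of all genes passed. Cd300a rose (log2 fold change 0.82, adjusted p = 0.0185), while Cd300lf (-0.70, adjusted p = 0.0125), Lair1, a collagen receptor (-0.58, adjusted p = 0.0201), and Cd72 (-0.54, adjusted p = 0.0194) fell. Cd300a stood at 159, 142 and 202 CPM in 4OHT and at 56 to 194 CPM in the live supernatants, so that the groups overlapped. In medium 5 rose, where 14.7% of all genes passed, with Siglece (1.68), Cd300a (1.51) and Clec12a (0.71) leading. Of 11 tested adhesion and SLAM genes, 2 rose and 2 fell in 4OHT against the live supernatants, where 2.95% of all genes passed. The SLAM family gene Slamf8 (1.24, adjusted p = 0.00165) and Itgal, the LFA-1 chain (1.09, adjusted p = 0.00212), rose, and Slamf9 (-1.31, adjusted p = 0.0163) and Cd24a (-0.94, adjusted p = 0.00837) fell. Itgal was also higher in medium (2.68, adjusted p = 1.43e-06), at 146 and 167 CPM, against 52.7, 58.8 and 94.5 CPM in 4OHT and 15.0 to 58.8 CPM in the live supernatants.
Of 10 counter-receptors of T cells 2 could be tested, Cd28 and Icos. Cd28 stood at 169, 153 and 149 CPM in 4OHT and at 76.8 to 139.9 CPM in the live supernatants, with all 4OHT samples above, and rose (log2 fold change 0.78, adjusted p = 0.0176). In medium, at 68.2 and 102 CPM, it did not pass (-0.02). The sum of the T cell markers was 2.11 to 3.99 CPM in 4OHT and 0.694 to 2.12 CPM in the live supernatants, far below the level of Cd28. Of the genes named from these lists, Cd276, Cd300lf, Cd72, Fgl2, Hmgb1, Irf7, Nfkb2 and Map3k14 overlap another annotated gene, whose reads were not separated here.

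**Figure D4:**
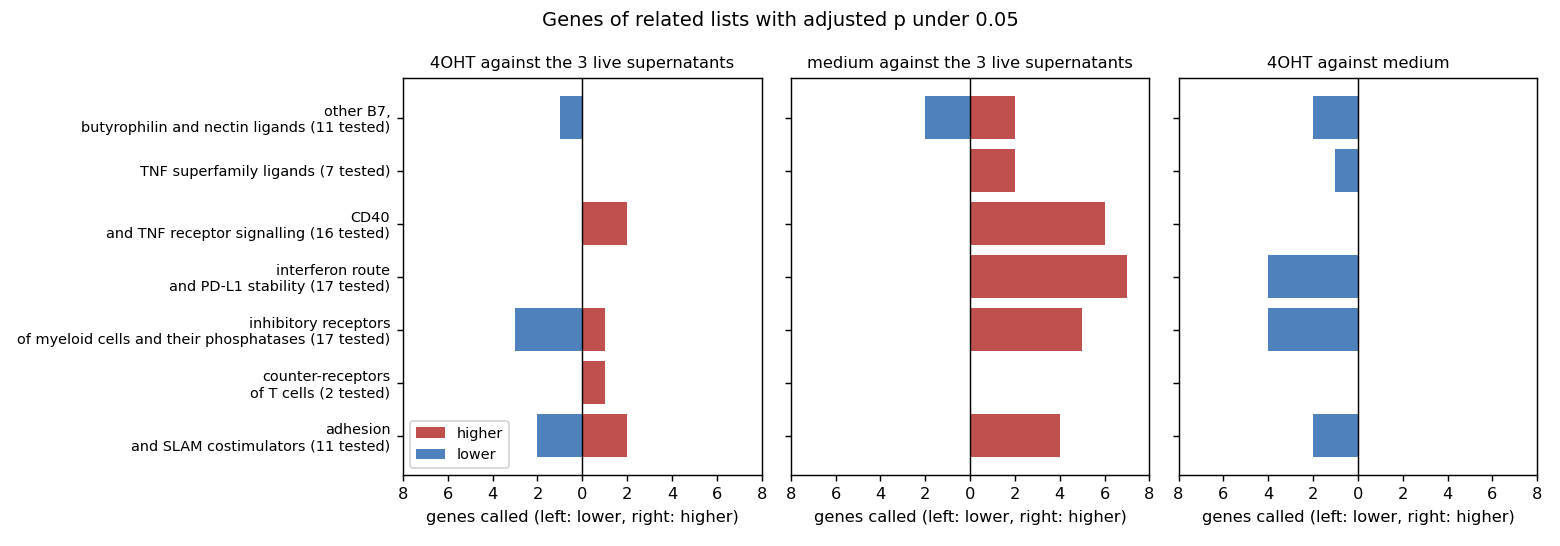
Number of genes with an adjusted p under 0.05 (horizontal axis, lower to the left and higher to the right) for 7 lists of related genes (vertical axis, with the number tested) in 3 comparisons. In medium against the live supernatants 7 genes of the interferon route and 6 of CD40 and TNF receptor signalling were higher, and in 4OHT against medium every gene that passed was lower.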

How the data were processed

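RNA of 14 pBMDM samples was sequenced as 50-bp single-end QuantSeq reads. The authors aligned reads with STAR 2.7.10a and quantified genes with Salmon 1.5.2 (versions as in the submitters' processing notes) and deposited expected counts, which are estimated counts per gene without normalization. Their methods name a human genome, the labels list GRCh38 and GRCm38, and the identifiers are those of mouse genes. A deposited table of their own DESeq2 comparisons, with 14 columns of per-sample values, was not used.

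The expected counts were rounded, 30109 values not being whole, although the test had been planned for counts. Genes kept by filterByExpr (minimum count of 10) were scaled by TMM and fitted with edgeR 4.0.16 (R 4.3.3) in 1 model of group and replicate number, after the study's mouse term. That the number is the mouse was assumed. Deviations from group means correlated with a median r of 0.25 (0 to 0.65) over 26 sample pairs sharing a number and of -0.14 (-0.53 to 0.24) over 52 others. As the deviations cancel within each group, these medians are tied to each other. The negative median is thus no separate evidence for the pairing. Where the numbers do not mark separate animals, p-values measure only the spread between these samples. SEs were derived from the F statistic. Log2 CPM used a prior count of 2. Reads carry no molecular identifiers, so count limits cover counting error only. The scripts were tested on simulated data. In simulated 4OHT against ctrl, 45.8% of 96 genes changed 2-fold and 87.9% of 99 genes changed 4-fold were recovered. A gene that did not pass may therefore still have changed.

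The genes and the lists were chosen with earlier results of these data known. Named are all 10 genes, at most 3 genes per list and direction with the largest change among those that passed, the 5 genes most like Cd274 without predicted genes, and cell type markers. Alternatives were DESeq2 1.42.0, no replicate block, other scaling factors, no filter, only the groups compared, the study's threshold of an absolute log2 fold change above 1, a prior count of 0.5, each replicate left out and, added after the data were seen, each medium sample left out.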

Additional observations from a re-analysis of the deposited data

How the results depend on the processing

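Without the replicate block 0 of the 9 genes passed for 4OHT against ctrl, where 7 of all 12851 genes tested did. For 4OHT against the live supernatants 0 passed (109 of all genes), for medium against ctrl 3 (523) and for 4OHT against medium 0 (104). The replicate block changed the count by 1.5 times or less in the other comparisons. With only the groups compared in the fit, 0, 1 and 4 of the 9 passed for 4OHT against ctrl, the live supernatants and medium. Over all genes 0 of 11857, 325 of 12418 and 1470 of 12149 passed in these fits. DESeq2 called 2 for 4OHT against ctrl (418 of 12851 genes). Without a filter on low counts 1 passed for 4OHT against the live supernatants (526 of 22388 genes). With an absolute log2 fold change above 1 as a further condition, 0 passed for 4OHT against ctrl (143 of all genes). Under that condition 0 passed for 4OHT against the live supernatants (219) and 3 for medium against ctrl (1001). Leaving out each replicate in turn, or each medium sample, gave 0 for 4OHT against ctrl each time, 0 to 2 for 4OHT against the live supernatants, 1 to 4 for medium against ctrl, 1 to 5 for medium against the live supernatants and 0 to 2 for 4OHT against medium. These fits hold fewer samples, and a lone medium sample is assumed to vary like the other groups. In each of these comparisons fewer of all genes passed without replicate 1 or replicate 2 than with all samples, and more without replicate 3. Fewer of all genes also passed in the medium comparisons without a medium sample.

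The direction turned for 6 values that had not passed. Cd80 in 4OHT against ctrl was 0.00 without the replicate block and -0.10 to 0.40 with replicates left out. Cd86 there was 0.00 with library sizes alone and -0.28 to 0.45 with replicates left out, and Cd40 -0.07 to 0.22. Cd40 in 4OHT against the live supernatants was -0.18 to 0.06 with replicates left out. Cd80 in medium against the live supernatants was -0.03 without the replicate block and -0.56 to 0.87 with replicates left out, and Vsir in 4OHT against medium was 0.04 without the block. The cause was not tested. With 2 medium samples and 3 of each supernatant, depth limits Cd80 and Pdcd1lg2 most.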
